A study of Mus musculus with 10 samples.

Results

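The 81 genes described here are nuclear genes of the mitochondrial respiratory chain and ATP synthase, measured in mouse epidermis that lacks or retains integrin-linked kinase (ILK), a scaffold protein of integrin adhesions. They were chosen by symbol alone: a gene was taken where a probe set with a single symbol began with Nduf and a letter a, b, c, s or v with a digit, with Uqcr, with Cox4 to Cox8 or with Atp5, or was Sdha, Sdhb, Sdhc or Sdhd. This gave 81 of the 19938 genes with such probe sets, by way of 105 of 21789 single-symbol probe sets, and each gene is given by its probe set with the highest mean over the 10 arrays. RNA came from 5 ILK-deficient mice (K14Cre; Ilk f/f), in which both Ilk alleles were floxed, and from 5 ILK-expressing controls (K14Cre; Ilk f/+), in which 1 allele was. Both genotypes carried the keratin 14-driven Cre transgene, so the controls had also lost 1 Ilk allele in keratin 14-positive keratinocytes and their descendants, while melanocytes, immune cells and other cells without that promoter's activity kept theirs. All mice were 3 days old, and the epidermis was lifted from the dermis with dispase, an enzyme that cuts the basement membrane.

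The respiratory chain moves electrons from NADH and succinate to oxygen through complexes I to IV of the inner mitochondrial membrane. Complexes I, III and IV pump protons as they do so, and complex V, the ATP synthase, uses the proton gradient to make ATP. Most subunits are encoded in the nucleus, and a few central ones in mitochondrial DNA. Keratinocytes of the basal layer and of the growing hair matrix use both respiration and glycolysis, and transcription of the nuclear subunit genes is known to draw on the factors NRF1, GABP (an ETS factor), YY1 and the estrogen-related receptors.

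Each array gave 1 log2 value per probe set, and 32046 probe sets with a linear value of at least 50 on at least 5 arrays were tested with limma. All 81 genes passed that filter. A log2 fold change is ILK-deficient minus ILK-expressing, adjusted p values are limma's after Benjamini-Hochberg correction across the 32046 tests, and a gene is called where that p is under 0.05. The SD given with a mean is between the 5 arrays of a genotype. Exact permutation tests are two-sided over all splits of the arrays into 5 and 5, and 0.00794 is the smallest p they can give, reached where the genotypes do not overlap. For genes named for their limma p on these same arrays, the permutation p is not independent support. Array medians lay between 7.07 and 7.17. The Ilk probe set, which pools deleted and retained exons, had log2 values of 8.94 ± 0.118 in ILK-deficient and 9.17 ± 0.181 in ILK-expressing epidermis (SD, n = 5 each; adjusted p = 0.253 from limma). Epidermal identity was plain on all arrays, with suprabasal keratinocyte markers (Krt1, Krt10 and 2 others) summing to 49739 to 52930 linear units in ILK-deficient and 51054 to 57111 in ILK-expressing epidermis.

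Most respiratory chain genes had log2 fold changes slightly below 0, in each of the 5 complexes, and few single genes passed the test. Of the 81 genes, 73 (90.1%) had a log2 fold change below 0, against 49% of all probe sets tested. Their median was -0.14, against 0.00311 over all probe sets tested. The genes that fell past the test were Atp5g1, Ndufb9 and Atp5d, which is 3 of 81 (3.7%), against 0.97% of all probe sets called lower. None was called higher, against 2.81% of all probe sets, and none was higher at an unadjusted p under 0.05, against 10.2%. At that unadjusted level 26 genes (32.1%) were lower, against 5.65% of all probe sets. The fold changes were small throughout and ran from -0.46 for Ndufa4l2 to 0.19 for Cox7a2l. In RNA from a whole tissue, fewer cells rich in a transcript and less of that transcript per cell cannot be told apart.

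**Figure D1:**
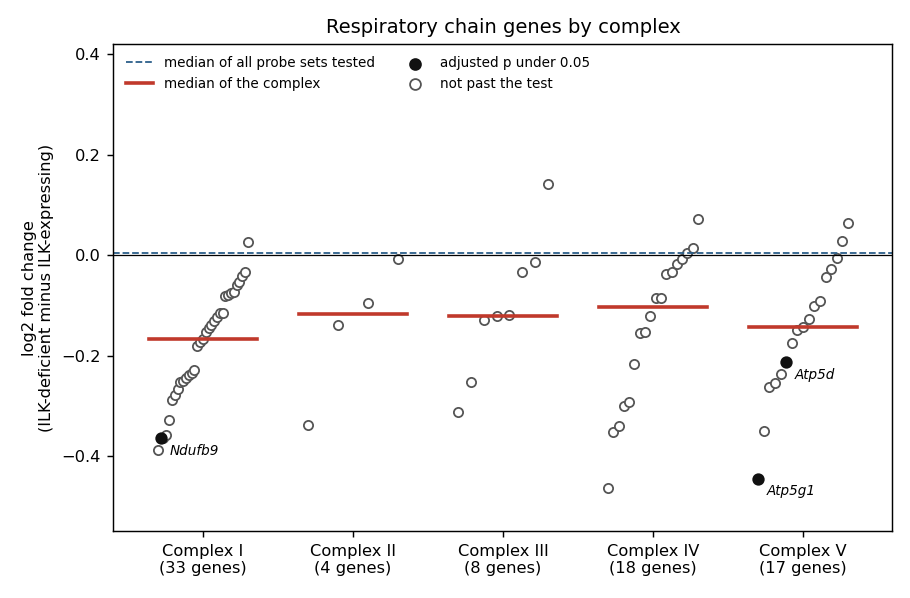
Log2 fold change (ILK-deficient minus ILK-expressing, y axis) of 80 respiratory chain genes, sorted within complexes I to V (x axis); Cox7a2l, an associated protein, is not drawn. Filled points are the 3 genes with an adjusted p under 0.05, red bars are medians of a complex, and the dashed line is the median of all probe sets tested. Every red bar lies below 0, between -0.17 for complex I and -0.10 for complex IV. Without its 8 tissue-restricted isoforms, complex IV had a median of -0.19.

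These counts rest on few arrays. Without ILK-deficient replicate 1 or replicate 5 no gene was called, and without ILK-expressing replicate 4 or replicate 5 only 1 was. The 26 genes at an unadjusted p became 12 without ILK-deficient replicate 1, 13 without ILK-deficient replicate 3, 16 without ILK-deficient replicate 5, and 14, 16 and 15 without ILK-expressing replicate 3, 4 and 5. The median over the 81 genes stayed between -0.17 and -0.11 in all of these. The sample names carry a prefix of unstated meaning (D, D' or C'), and among the 7 arrays with prefix D (ILK-deficient replicates 1 to 4, ILK-expressing replicates 1 to 3) the median was -0.08, no gene was called and 8 were lower at an unadjusted p under 0.05. With the prefix as a block the median was -0.12 and 1 gene, Atp5g1, was called. Prefix D' was on ILK-deficient replicate 5 and ILK-expressing replicate 4, and C' on ILK-expressing replicate 5 alone. Prefix and genotype are therefore partly confounded.

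In 6 genes the genotypes did not overlap, all with every ILK-deficient array below every ILK-expressing array: Atp5g1, Ndufb9, Atp5d, Ndufa12, Cox6a1 and Ndufc1. That is 7.41% of the genes, against 1.96% of all probe sets in this direction, and no gene was separated upward, against 4.37%. Ndufc1 was singled out after its values were seen. The count was 10 without ILK-deficient replicate 4 and 12 without ILK-expressing replicate 1 or replicate 2. Leaving out an array can only keep or raise such a count, and the share of all probe sets on the same arrays is not given.

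**Figure D2:**
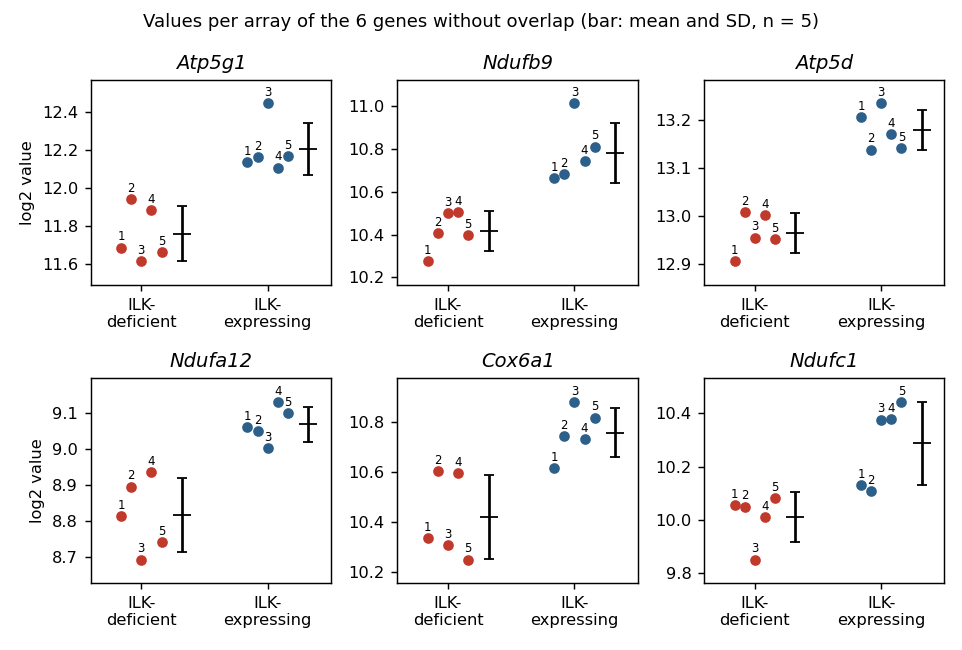
Log2 value (y axis) of the 6 genes without overlap on each array, ILK-deficient on the left and ILK-expressing on the right, numbered by replicate, with mean and SD (n = 5) as a bar. Each gene has its own y axis, the arrays of a genotype lie closest together for Atp5d, and the genotypes nearly touch for Cox6a1 and Ndufc1.

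Atp5g1 is 1 of 3 genes that encode the same mature c subunit, the protein that forms the rotating, proton-carrying ring of the ATP synthase. Its log2 values were 11.69, 11.94, 11.62, 11.89 and 11.66 in ILK-deficient epidermis, against 12.14, 12.16, 12.45, 12.11 and 12.17 in ILK-expressing epidermis. ILK-deficient replicates 2 and 4 were the highest of their group, and ILK-expressing replicate 3 stood above the rest of its own. Atp5g1 was thus 1.36-fold lower, or -0.45 ± 0.089 (standard error) on the log2 scale (adjusted p = 0.0233 by limma, exact permutation p = 0.00794), and a second Atp5g1 probe set gave -0.41. The call was lost without ILK-deficient replicate 1 (adjusted p = 0.0592) and without ILK-deficient replicate 5 (adjusted p = 0.0659).

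Ndufb9 encodes an accessory subunit of the membrane arm of complex I. Its log2 values were 10.27, 10.41, 10.50, 10.51 and 10.40 in ILK-deficient epidermis, against 10.66, 10.68, 11.01, 10.74 and 10.81 in ILK-expressing epidermis. The lowest ILK-expressing array stood above the highest ILK-deficient one, and ILK-expressing replicate 3 was again the highest. It was 1.29-fold lower, or -0.37 ± 0.0793 (standard error) on the log2 scale (adjusted p = 0.0318 by limma, exact permutation p = 0.00794). The call was lost in turn without ILK-deficient replicate 1, 2 or 5 and without ILK-expressing replicate 4 or 5, with adjusted p values up to 0.0821.

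Atp5d encodes the delta subunit of the central stalk, which couples the c ring to the catalytic head. Its log2 values were 12.90, 13.01, 12.95, 13.00 and 12.95 in ILK-deficient epidermis, against 13.21, 13.14, 13.23, 13.17 and 13.14 in ILK-expressing epidermis. Here the change was small, but the arrays of a genotype lay close together (SD 0.0419 in ILK-deficient and 0.0416 in ILK-expressing epidermis). It was 1.16-fold lower, or -0.21 ± 0.0495 (standard error) on the log2 scale (adjusted p = 0.0408 by limma, exact permutation p = 0.00794). The call did not survive leaving out any single array, with adjusted p values from 0.0565 to 0.106.

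Promoter sequence is shown for the called genes that had an entry among the RefSeq promoters of build GRCm38.p6, and for Cox6a1, added because its window holds several of the motifs searched. Each line gives the 150 bases before the annotated start, 5′ to 3′ on the gene's strand, and capitals mark matches on either strand to the motifs searched. The Atp5g1 window is at chr11:96075632-96075781 on the minus strand, that of Atp5d at chr10:80142125-80142274 on the plus strand and that of Cox6a1 at chr5:115348959-115349108 on the minus strand.
Atp5g1: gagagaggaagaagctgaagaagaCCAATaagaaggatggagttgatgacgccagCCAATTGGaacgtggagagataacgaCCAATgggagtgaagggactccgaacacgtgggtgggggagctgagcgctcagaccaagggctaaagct
Atp5d: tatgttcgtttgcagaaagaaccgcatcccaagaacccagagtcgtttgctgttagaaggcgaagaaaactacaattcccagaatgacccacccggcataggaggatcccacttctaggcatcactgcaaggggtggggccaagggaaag
Cox6a1: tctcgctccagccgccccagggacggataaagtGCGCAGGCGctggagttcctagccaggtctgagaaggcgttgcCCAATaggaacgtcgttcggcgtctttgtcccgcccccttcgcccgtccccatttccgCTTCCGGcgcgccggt
The Atp5g1 window holds only CCAAT boxes, a pair of which overlap on opposite strands, the Cox6a1 window holds an NRF1 motif, a CCAAT box and an ETS motif, and the Atp5d window matched none of the motifs.

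Windows from 250 bases before to 50 after the start were found for 66 of the 81 genes, 71 windows in all, and were searched on both strands beside all 32851 windows of the build. The NRF1 motif GCGCANGCG was in 28.2% of the respiratory chain windows, against 6.25% of all windows. The ETS motif CCGGAAG was in 23.9%, against 8.86%, and the YY1 motif AAGATGGCG was in 9.86%, against 1.4%. The estrogen-related receptor motif AAGGTCA was in 9.86%, against 4.72%. The general promoter elements were near their background, with CCAAT in 42.3% of windows against 37.4% and TATAAA in 12.7% against 13.6%. These shares describe letters in a window. Of the genes without overlap that had a window, Cox6a1 held the NRF1, ETS and CCAAT motifs, Ndufc1 the YY1 motif and Atp5g1 CCAAT boxes, while Ndufa12 and Atp5d matched none.

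Complex I takes electrons from NADH and is the largest complex of the chain. Of its 33 genes, 32 were below 0 with a median of -0.17, 12 were lower at an unadjusted p under 0.05, and Ndufb9 alone was called. All 12 encode accessory subunits, which surround the catalytic core: Ndufa1, Ndufa3, Ndufa8, Ndufa9, Ndufa10, Ndufa11, Ndufa12, Ndufb6, Ndufb7, Ndufb9, Ndufc1 and Ndufs6. The 6 core subunits measured, which hold the flavin and iron-sulfur clusters or lie beside them, had log2 fold changes from -0.27 for Ndufv1 to -0.12 for Ndufv2, with a median of -0.15 against -0.17 for the 27 accessory subunits. This division by role was made after the values were seen, and the difference between the medians was not tested. Ndufs4, an accessory subunit of the NADH-oxidising arm, was the only gene of the complex above 0, at 0.03.

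Ndufa12, an accessory subunit of the arm that reaches into the matrix, just missed the call. Its log2 values were 8.82, 8.90, 8.69, 8.94 and 8.74 in ILK-deficient epidermis, against 9.06, 9.05, 9.00, 9.13 and 9.10 in ILK-expressing epidermis. The ILK-expressing arrays were the tighter group, and the ILK-deficient ones spread more widely below them. The change was -0.25 ± 0.062 on the log2 scale (standard error; adjusted p = 0.0521 by limma, exact permutation p = 0.00794). It passed under 6 of the 20 other settings tried, 4 of them other scalings or filters.

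Ndufc1, a small membrane subunit, had log2 values of 10.06, 10.05, 9.85, 10.01 and 10.08 in ILK-deficient epidermis, against 10.13, 10.11, 10.38, 10.38 and 10.44 in ILK-expressing epidermis. ILK-expressing replicates 1 and 2 stood only just above the ILK-deficient arrays, while replicates 3 to 5 were well clear of them. On the log2 scale the change was -0.28 (adjusted p = 0.105 by limma, exact permutation p = 0.00794), and its second probe set, at -0.31, was called. Ndufc1 was singled out for its lack of overlap, which by itself fixes that permutation p, so the permutation test adds nothing here.

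Ndufa1, a membrane subunit encoded on the X chromosome, had the largest fold change of the complex, -0.39, but its genotypes overlapped. Its log2 values were 7.16, 7.38, 7.16, 7.66 and 7.57 in ILK-deficient epidermis, against 7.67, 7.47, 7.64, 7.87 and 8.21 in ILK-expressing epidermis. The adjusted p was 0.21 from limma. Ndufc2, another membrane subunit, averaged 12.32 ± 0.144 in ILK-deficient and 12.43 ± 0.166 in ILK-expressing epidermis (SD, n = 5 each), which is within the spread of the arrays (adjusted p = 0.682 from limma).

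Complex II, succinate dehydrogenase, has only 4 subunits, all nuclear, and is also an enzyme of the TCA cycle. All 4 genes were below 0, with a median of -0.12, none was called, and Sdhd alone was lower at an unadjusted p under 0.05. Sdhd, a membrane anchor, had log2 values of 8.79, 9.22, 8.68, 9.13 and 8.93 in ILK-deficient epidermis, against 9.14, 8.98, 9.58, 9.24 and 9.52 in ILK-expressing epidermis. The upper ILK-deficient arrays overlapped the lower ILK-expressing ones, and the log2 fold change of -0.34 had an adjusted p of 0.257 from limma. Sdha, the flavoprotein that oxidises succinate, was at -0.14 (adjusted p = 0.462 from limma). Sdhb, the iron-sulfur subunit, was at -0.10, and Sdhc, the other membrane anchor, at -0.01 (95% interval -0.23 to 0.21).

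Complex III passes electrons from ubiquinol to cytochrome c. Of its 8 genes, 7 were below 0 with a median of -0.12, and only Uqcrq, a small subunit, was lower at an unadjusted p under 0.05. Its log2 values were 9.27, 9.66, 9.37, 9.83 and 9.48 in ILK-deficient epidermis, against 9.56, 9.63, 9.91, 10.04 and 10.04 in ILK-expressing epidermis. ILK-deficient replicates 2 and 4 lay among the ILK-expressing arrays (log2 fold change -0.31, adjusted p = 0.271 from limma). Uqcr10, another small subunit, was at -0.25 (adjusted p = 0.421 from limma). The large subunits Uqcrc1 and Uqcrc2 and the Rieske iron-sulfur protein Uqcrfs1 lay together, at -0.12, -0.12 and -0.13. Uqcrb averaged 13.48 ± 0.0631 in ILK-deficient and 13.51 ± 0.0954 in ILK-expressing epidermis (SD, n = 5 each), a difference within the spread of its arrays. Uqcr11 was the only one above 0, at 0.14, with an ILK-expressing array as low as 9.46 where the other 4 lay between 10.23 and 10.59.

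Complex IV, cytochrome c oxidase, reduces oxygen. It differs from the other complexes in having several subunits with paired isoforms, one found widely and the other mainly in muscle, lung, testis or fetal tissue. Of its 18 genes here, 15 were below 0 with a median of -0.10, 6 had an unadjusted p under 0.05, all lower, but no adjusted p passed. All 6 were among the 10 widely expressed subunits, whose median was -0.19: Cox5a, Cox5b, Cox6a1, Cox6b1, Cox6c and Cox8a.

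Cox6a1, the widely expressed form of a subunit that modulates the enzyme, had log2 values of 10.33, 10.60, 10.31, 10.60 and 10.25 in ILK-deficient epidermis, against 10.62, 10.74, 10.88, 10.73 and 10.82 in ILK-expressing epidermis. ILK-deficient replicates 1, 3 and 5 were far below, and ILK-deficient replicates 2 and 4 almost reached ILK-expressing replicate 1. Its log2 fold change was -0.34 ± 0.0879 on the log2 scale, without a call (standard error; adjusted p = 0.0635 by limma, exact permutation p = 0.00794). Cox5b, a zinc-binding subunit on the matrix side, split in the same way, with 11.35, 11.80, 11.37, 11.74 and 11.32 in ILK-deficient epidermis, against 11.79, 11.84, 11.98, 11.84 and 11.89 in ILK-expressing epidermis. A single ILK-deficient array overlapped a single ILK-expressing array (log2 fold change -0.35, adjusted p = 0.102 from limma). Cox6c averaged 13.20 ± 0.0743 in ILK-deficient and 13.35 ± 0.0749 in ILK-expressing epidermis (SD, n = 5 each; log2 fold change -0.16, adjusted p = 0.216 from limma).

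The isoform families went both ways. Against -0.34 for Cox6a1, its heart and skeletal muscle counterpart Cox6a2 was at -0.09 (95% interval -0.30 to 0.13). Cox6b1 was at -0.22 (-0.40 to -0.04) and its testis counterpart Cox6b2 at 0.01 (-0.23 to 0.26). Cox8a was at -0.15 (-0.30 to -0.0028), and its restricted counterparts Cox8b and Cox8c at -0.03 and 0.07. Cox7a2 was at -0.09 and Cox7a1 at -0.04, and Cox7b was at -0.12 and Cox7b2 at -0.0078. In these families the widely expressed form had the lower fold change. The order was the other way round for Cox4i1, at 0.0043 (-0.28 to 0.29), with Cox4i2 at -0.02, and for Ndufa4 and Ndufa4l2, described next. The differences between partners were not tested. Cox7a1, Cox7b2, Cox8b and Cox8c had values close to the filter's limit of 5.64, with means of 6.01, 5.80, 5.87 and 5.93 in ILK-expressing epidermis, and Cox4i2, Cox6b2 and Cox6a2 stood further above it, at 6.46, 6.79 and 7.25.

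**Figure D3:**
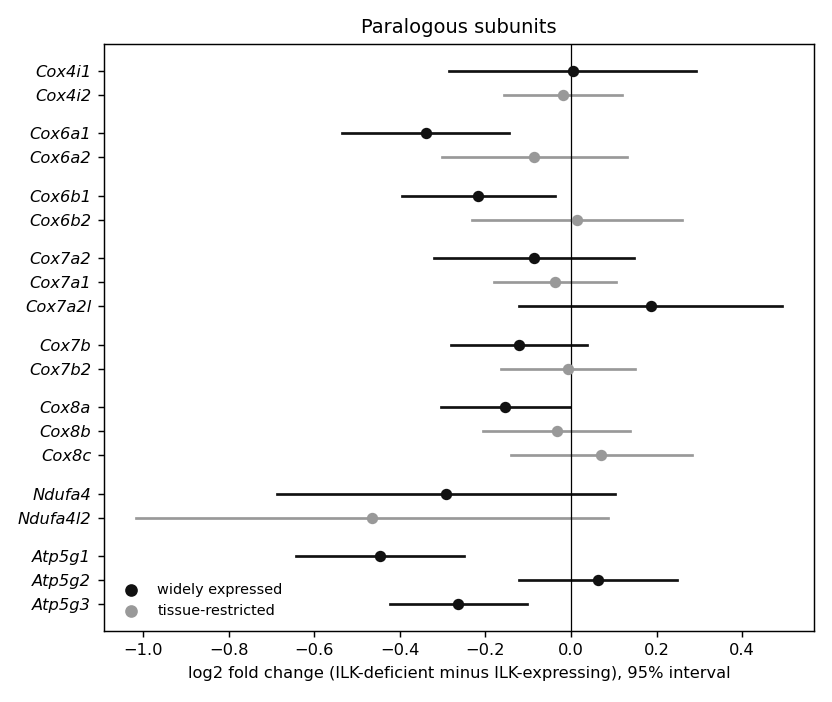
Log2 fold change (ILK-deficient minus ILK-expressing, x axis) with its 95% interval for the isoform families, widely expressed forms in black and tissue-restricted forms in grey. Atp5g1, at -0.45, and Cox6a1, at -0.34, lie wholly below 0, while Atp5g2 and Cox4i1 straddle it and Ndufa4l2 has the widest interval.

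Ndufa4, named for complex I but a subunit of complex IV, was at -0.29 with one high ILK-expressing array: its values were 9.68, 9.89, 9.41, 9.85 and 9.65 in ILK-deficient epidermis, against 9.72, 9.62, 9.88, 10.07 and 10.64 in ILK-expressing epidermis. Ndufa4l2, its paralog and a known target of hypoxia-inducible factors, had values of 8.71, 9.36, 9.51, 9.43 and 8.32 in ILK-deficient epidermis, against 9.33, 9.05, 9.91, 9.56 and 9.82 in ILK-expressing epidermis. It had the largest fold change of all 81 genes and also a wide scatter (-0.46, adjusted p = 0.432 from limma). Cox7a2l, which is not a subunit but helps join complexes III and IV into supercomplexes, had the highest fold change, 0.19. Its values were 9.32, 9.75, 9.35, 9.62 and 9.14 in ILK-deficient epidermis, against 9.14, 9.16, 9.52, 8.96 and 9.47 in ILK-expressing epidermis, with no call (adjusted p = 0.634 from limma).

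Complex V held 2 of the 3 calls. Of its 17 genes, 15 were below 0 with a median of -0.14, and 6 were lower at an unadjusted p under 0.05: Atp5g1, Atp5h, Atp5g3, Atp5d, Atp5a1 and Atp5b. In the catalytic F1 head and central stalk all 5 genes were below 0, from -0.25 for Atp5e, the epsilon subunit, to -0.03 for Atp5c1, the gamma subunit. Atp5b, the catalytic beta subunit, averaged 13.40 ± 0.016 in ILK-deficient and 13.52 ± 0.082 in ILK-expressing epidermis (SD, n = 5 each). Its ILK-deficient arrays lay close together, and only ILK-expressing replicate 5 fell among them (log2 fold change -0.13, adjusted p = 0.285 from limma). In the peripheral stalk, which holds the head still, all 4 genes were below 0, from -0.35 for Atp5h to -0.09 for Atp5j. The 5 supernumerary membrane subunits had the median closest to 0, -0.04, though Atp5mpl among them, at -0.17, lay below Atp5c1 and Atp5j. This division by role was also made after the values were seen, and the differences between its parts were not tested.

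The c subunit has 3 genes. Beside Atp5g1 at -0.45, Atp5g3 had log2 values of 11.77, 11.90, 11.66, 11.97 and 11.71 in ILK-deficient epidermis, against 11.97, 12.03, 12.16, 12.11 and 12.06 in ILK-expressing epidermis. Only ILK-deficient replicate 4 reached the ILK-expressing arrays (log2 fold change -0.26, adjusted p = 0.079 from limma). Atp5g2 had 12.13, 12.01, 11.90, 11.96 and 11.97 in ILK-deficient epidermis, against 11.77, 11.92, 12.20, 11.89 and 11.88 in ILK-expressing epidermis. Here the ILK-deficient values lay within the range of the ILK-expressing ones, of which replicate 3 alone stood above every ILK-deficient array. The log2 fold change was 0.06 (95% interval -0.12 to 0.25), an interval that does not reach that of Atp5g1 (-0.64 to -0.25). With an array left out it ran from 0.02 to 0.13. All 3 Atp5g2 probe sets were above 0, and both Atp5g1 probe sets were called lower. The intervals of Atp5g1 and Atp5g3 (-0.42 to -0.10) overlap. The differences between the genes were not tested.

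Of the 16 genes with several probe sets, all 16 had the same sign in every probe set, 15 had the same call, and Ndufc1 was the exception. Within a gene the fold changes spanned 0.0339 at the median and 0.0972 at most. The share of genes below 0 was high at every level of the probe set value. Below 0 were 12 of 14 genes with a mean log2 value under 8, 21 of 22 from 8 to 10, 29 of 34 from 10 to 12, and 11 of 11 at 12 or more, while between 43.4% and 52.3% of all probe sets in these ranges were below 0. A further 6 probe sets that list a respiratory chain gene among several symbols were not used, and the single-symbol probe set of Ndufs5 had low values, 6.28 in ILK-deficient and 6.33 in ILK-expressing epidermis.

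Many of the 81 genes, though not all, rose and fell together from mouse to mouse. The mean log2 value of all 81 was 9.88, 10.12, 9.94, 10.15 and 9.95 on the ILK-deficient arrays, against 10.05, 10.03, 10.26, 10.17 and 10.28 on the ILK-expressing arrays. The genotypes therefore overlapped in this mean, with ILK-deficient replicates 2 and 4 above ILK-expressing replicates 1 and 2. They also overlapped in the mean of each complex, and ILK-deficient replicates 2 and 4 were above ILK-expressing replicates 1 and 2 except in complex IV. There ILK-deficient replicate 2, at 9.196, lay just below ILK-expressing replicate 2, at 9.201. The overlap was wider in complexes II and III. In complex II ILK-deficient replicate 5 (9.98) was also above ILK-expressing replicate 2 (9.92). In complex III ILK-deficient replicates 3 and 5 (10.61 each) were also above ILK-expressing replicate 2 (10.47). ILK-deficient replicates 2 and 4 both stood above the other 3 ILK-deficient arrays for 52 of the 81 genes (64.2%), against 13.7% of all probe sets tested. ILK-expressing replicate 5 was the highest of its group for 36 genes (44.4%), against 25.6% of all probe sets, and ILK-deficient replicate 1 the lowest of its group for 38 (46.9%), against 17.8%. These arrays were singled out after their values were seen.

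**Figure D4:**
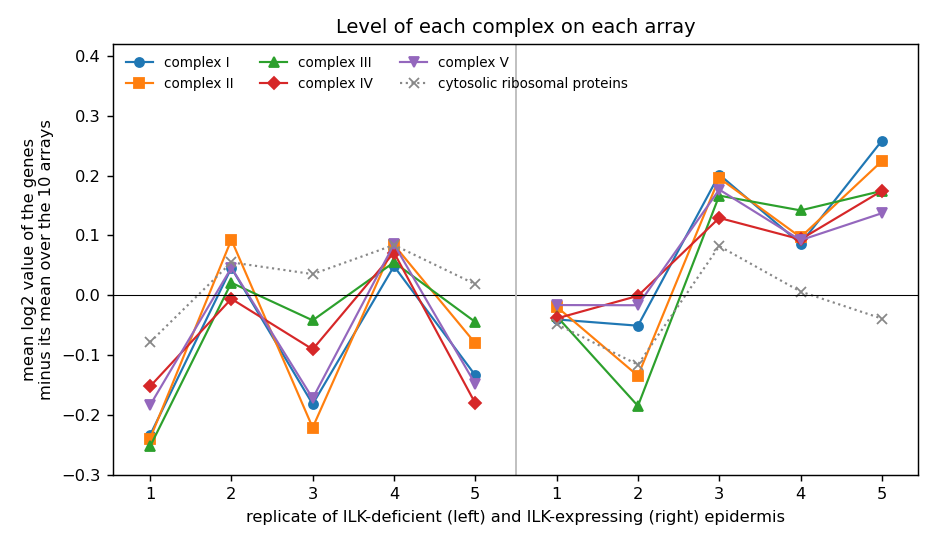
Mean log2 value of the genes of each complex on each array, minus that complex's mean over the 10 arrays (y axis), for the ILK-deficient replicates on the left and the ILK-expressing replicates on the right (x axis). The 5 complexes follow each other closely, and the cytosolic ribosomal protein genes (grey) have a smaller range.

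The split of the ILK-deficient arrays was shared by some other gene lists and not by all. Mitochondrial ribosomal protein genes had ILK-deficient replicates 2 and 4 above the other 3 for 43 of 77 genes (55.8%), cytosolic ribosomal protein genes for 13 of 50 (26%), and glycolysis genes for 1 of 15 (6.67%). The upper quartile of all values was 9.25 and 9.20 on ILK-deficient replicates 2 and 4, and 9.15, 9.11 and 9.20 on replicates 1, 3 and 5. It was 9.17, 9.06, 9.21, 9.11 and 9.22 on the ILK-expressing arrays, so the deposited columns do not share a single distribution. The part of these differences in the result was not tested beyond the other scalings, which kept the median over the 81 genes at -0.16 with arrays centred on their medians and -0.14 with quantiles equalised again.

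Genes that build or feed the respiratory chain had medians below 0, and few passed the test. Of all probe sets tested, 0.97% were called lower and 2.81% higher, and 5.65% were lower and 10.2% higher at an unadjusted p under 0.05. None of 15 complex I assembly factors was called by limma (5 lower and 0 higher at an unadjusted p under 0.05), with a median of -0.10 and Timmdc1 lowest at -0.39. None of 30 assembly factors of complexes II to V was called (4 lower and 1 higher unadjusted), with a median of -0.07. Among 19 electron carriers and further subunits the median was -0.12, with 1 call in each direction. Etfb, a subunit of the electron transfer flavoprotein that brings electrons from fatty acid oxidation, was lower (10.34 ± 0.264 in ILK-deficient and 10.91 ± 0.13 in ILK-expressing epidermis, SD, n = 5 each; log2 fold change -0.58, adjusted p = 0.0295 from limma). Coq8a, a kinase-like protein of ubiquinone synthesis, was higher (7.90 ± 0.207 in ILK-deficient and 7.42 ± 0.0921 in ILK-expressing epidermis, SD, n = 5 each; log2 fold change 0.48, adjusted p = 0.0262 from limma). Cycs, cytochrome c, showed no overlap of the genotypes at a log2 fold change of -0.15, with no call (adjusted p = 0.224 from limma).

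Neighbouring mitochondrial pathways gave no calls by limma. The unadjusted counts below stand beside 5.65% lower and 10.2% higher among all probe sets tested. The 21 TCA cycle and pyruvate dehydrogenase genes had a median of -0.07, with 3 lower and 1 higher at an unadjusted p under 0.05. The 15 fatty acid oxidation genes had a median of -0.13, with 5 lower and 0 higher unadjusted. The 10 genes of ADP/ATP and phosphate exchange had a median of -0.09 with 1 lower, and the 26 genes of protein import and cristae a median of -0.17 with 5 lower and 1 higher. Mitochondrial ribosomal protein genes had 60 of 77 below 0, a median of -0.12, and 10 lower and 0 higher unadjusted. Cytosolic ribosomal protein genes, which serve translation outside mitochondria, had 17 of 50 below 0, a median of 0.03, and 0 lower and 3 higher unadjusted. The 20 regulators of mitochondrial biogenesis and mitochondrial DNA expression, among them the factors whose motifs were searched, had a median of 0.01, with 1 lower and 1 higher unadjusted. Yy1 was at 0.16 (adjusted p = 0.115 from limma) and Ppargc1b at -0.28 (adjusted p = 0.0992 from limma), both without overlap of the genotypes. Of all probe sets, 4.37% were separated upward and 1.96% downward. Gabpa was at 0.12 (adjusted p = 0.489 from limma). Subunits encoded in mitochondrial DNA had no single-symbol probe set in the annotation used and were not analysed here.

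Of 15 glycolysis and lactate genes, 13 were below 0 with a median of -0.31. At an unadjusted p under 0.05, 8 were lower and 0 higher, against 5.65% and 10.2% of all probe sets. In 3 the genotypes did not overlap, all lower, against 1.96% of all probe sets in this direction. Of the 15 genes 2 were called, both lower, against 0.97% of all probe sets called lower. Aldoa, an aldolase that splits fructose bisphosphate, averaged 11.76 ± 0.0748 in ILK-deficient and 12.19 ± 0.182 in ILK-expressing epidermis (SD, n = 5 each; log2 fold change -0.43, adjusted p = 0.0261 from limma). Ldha, which makes lactate from pyruvate, averaged 11.68 ± 0.11 in ILK-deficient and 12.08 ± 0.128 in ILK-expressing epidermis (SD, n = 5 each; log2 fold change -0.40, adjusted p = 0.0232 from limma). Hk1, which starts the pathway, was at 0.10 (adjusted p = 0.601 from limma). Of 11 hypoxia targets none was called by limma (3 lower and 1 higher unadjusted). They had no common direction, with 5 below and 6 above 0, from -0.70 for Egln3 to 0.72 for Ndrg1, and their median was 0.12.

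**Figure D5:**
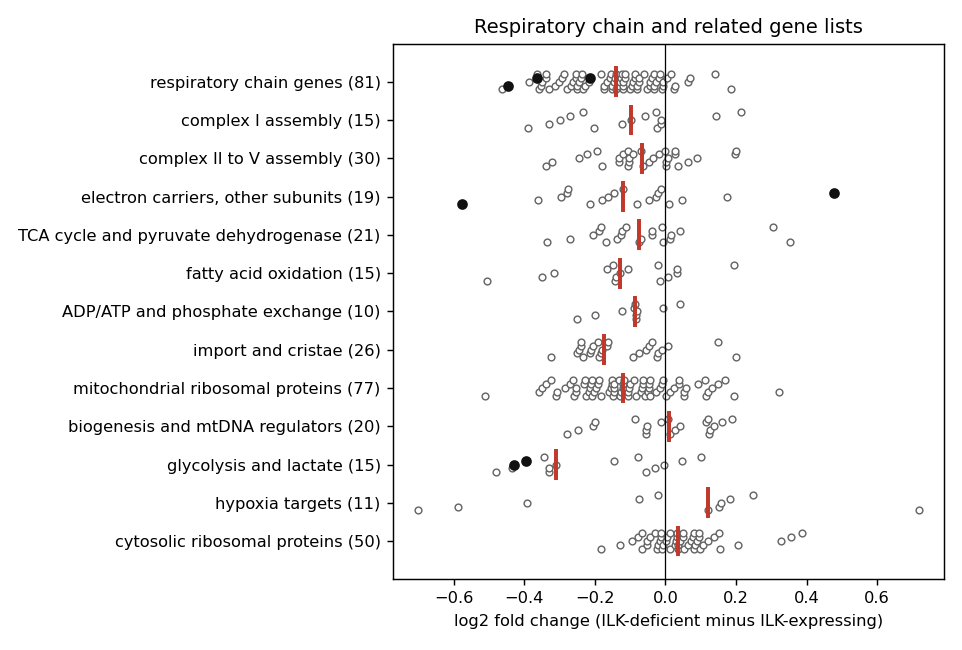
Log2 fold change (ILK-deficient minus ILK-expressing, x axis) of each gene of the respiratory chain and of related lists (rows, number of genes tested in brackets), with the median of a list in red and genes with an adjusted p under 0.05 filled. The medians run from -0.31 for glycolysis to 0.12 for hypoxia targets, with the respiratory chain at -0.14 and cytosolic ribosomal proteins at 0.03.

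Markers of other cell types also differed between the genotypes. Of all probe sets tested, 0.97% were called lower and 2.81% higher. Hair shaft and inner root sheath markers, 7 of 9 of them called lower with a median of -3.62, summed to 1157 to 3303 linear units in ILK-deficient epidermis and 9559 to 46342 in ILK-expressing epidermis. Within the ILK-expressing group, the mean log2 value of these markers was 9.61, 10.26, 9.26, 11.46 and 11.02 on replicates 1 to 5, beside means of the 81 genes of 10.05, 10.03, 10.26, 10.17 and 10.28. Melanocyte markers, 5 of 7 called higher with a median of 1.28, summed to 7140 to 13397 linear units in ILK-deficient and 1980 to 4910 in ILK-expressing epidermis. Of 7 immune markers 2 were called higher, Adgre1 and Lyz2, and the sum over the list was 2759 to 3744 linear units in ILK-deficient and 2707 to 4530 in ILK-expressing epidermis. Of 8 fibroblast markers all 8 were above 0 with a median of 0.29, Thy1 was called higher (log2 fold change 0.39, adjusted p = 0.0421 from limma), and the sum was 3918 to 7069 linear units in ILK-deficient and 1833 to 5771 in ILK-expressing epidermis. None of 7 endothelial and mural markers was called by limma, nor was either of 2 erythroid markers, and none of these had an unadjusted p under 0.05. The part of these cell types in the respiratory chain values was not tested.

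Markers of striated muscle, a tissue rich in respiratory chain transcripts that can adhere to stripped skin, had low values and differed little at the median. Of 16 markers, 12 passed the filter. None of these was called by limma or had an unadjusted p under 0.05. Their median was 0.01 (range -0.06 to 0.48), and their sum was 1082 to 1489 linear units in ILK-deficient and 1125 to 1233 in ILK-expressing epidermis. Their mean log2 value was 6.37 to 6.75 in ILK-deficient and 6.42 to 6.58 in ILK-expressing epidermis, below the array medians of 7.07 to 7.17. At such low values a lack of difference says little. None of 9 adipocyte markers was called (1 lower unadjusted), with sums of 1134 to 1190 in ILK-deficient and 1132 to 2078 in ILK-expressing epidermis. Of the basal keratinocyte markers (7), Trp63, the p63 regulator of the basal layer, was higher at 0.35 and Krt14, whose promoter drives the Cre, was lower at -0.23, while the other 5 were not called and the median was 0.03.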

How the data were processed

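Epidermal RNA of 10 mice was hybridised to GeneChip Mouse Gene 1.0 ST arrays, 1 array per mouse. The deposited table holds log2 values, 1 per probe set and array. The authors' methods describe background adjustment and quantile normalization. Those methods name GC-RMA and RMA, and Partek for analysis, without stating which made the table. The values were used as deposited, and genotypes came from the sample labels. Probe sets (35556) were named by the platform annotation. limma 3.58.1 in R 4.3.3 (lmFit, eBayes) compared the genotypes with no covariate over 32046 probe sets, and was tested on simulated data. Genes named are those called, the leading genes of each complex, the isoform families and the succinate dehydrogenase subunits, and of each related list up to 4 called and 2 abundant members. From the list of cytosolic ribosomal protein genes, first written as a symbol pattern, 17 matches were dropped by symbol after the values were seen (S6 kinases, binding proteins, pseudogenes and like-named paralogs). Members, lists and tests were chosen with earlier results of these data known. Alternatives changed the filter, scaling, test, block, probe sets or arrays. The number of arrays limits the precision.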

Additional observations from a re-analysis of the deposited data

Results flagged for a closer look

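Among 80 groups of 5 arrays examined for the named genes and summary levels, 4 had an array far from the others of its genotype by Dixon's test, where chance gives about 1 in 20 groups. Atp5g1 was at 12.45 on ILK-expressing replicate 3, against 12.11 to 12.17 on the other ILK-expressing arrays. Without that array its log2 fold change was -0.39 and its call held (adjusted p = 0.0388 from limma). Uqcrb was at 13.59 on ILK-deficient replicate 5, against 13.43 to 13.47 on the other ILK-deficient arrays. Cox6c was at 13.22 on ILK-expressing replicate 2, against 13.36 to 13.40 on the other ILK-expressing arrays. Cox4i2 was at 6.51 on ILK-deficient replicate 4, against 6.41 to 6.43 on the other ILK-deficient arrays.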

How the results depend on the processing

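The median over the 81 genes stayed below 0 under all 20 settings (-0.17 to -0.08), as did that of each complex, and no gene was called higher under any. The 3 genes called lower became 6 with quantiles equalised again, 7 with a gene's probe sets averaged, 1 with the name prefix as a block, 0 among the arrays with prefix D alone, and 0 to 2 with an array left out. The 6 genes without overlap became 11 with quantiles equalised again and 6 to 12 with an array left out, where this count can only stay or rise. Replicate numbers did not pair the arrays (correlations of deviations -0.30 to 0.11), and with the replicate block 0 genes were called by limma and 17 were lower at an unadjusted p under 0.05. Over the settings the adjusted p ran from 0.00951 to 0.154 for Atp5g1, from 0.013 to 0.237 for Ndufb9 and from 0.0142 to 0.254 for Atp5d. Genes near 0 changed sign: with arrays centred, Cox4i1 (-0.019) and Cox6b2 (-0.0087); with the prefix block, Cox7b2 (0.019) and Sdhc (0.048); with prefix D alone, Cox4i2 (0.0200), Cox7a2 (0.012), Cox7b2 (0.069) and Sdhc (0.046). With an array left out, Cox4i1 ran from -0.056 to 0.10, Cox4i2 from -0.049 to 0.013, Cox6b2 from -0.049 to 0.067, Cox7b2 from -0.049 to 0.019, Cox8b from -0.066 to 0.0097 and Sdhc from -0.072 to 0.047. The causes were not tested. Of 679 values of single genes, 616 kept direction and side of the threshold.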
